A study of Mus musculus with 2 samples.

Results

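The genes described here are 10 mouse genes of histone H3 lysine 9 (H3K9) methylation and heterochromatin: Setdb1, Ehmt1, Ehmt2, Suv39h2, Atf7ip, Trim28, Cbx5, Cbx1, Cbx3 and Morc3. They were taken as a list by name, and all 10 were found among the 21911 protein-coding genes of the GENCODE M21 annotation on mm10. The data are peaks of trimethylated histone H3 lysine 36 (H3K36me3) from ChIP-seq, the sequencing of DNA pulled down with an antibody to the mark, in E14TG2a.4 cells, a male mouse embryonic stem cell line of strain 129/Ola labelled embryonic with an age of 3.5 days. The single group holds 2 biological replicates, which the labels give as separate biosamples of 1 donor, with no treatment, no mutant and no second cell type. All values therefore describe 1 line in 1 state, and the spread between the replicates is the only error available.

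In mammals, H3K9 methylation marks silent chromatin. Setdb1, Ehmt1, Ehmt2 and Suv39h2 are methyltransferases that write it, Atf7ip is the partner that stabilises Setdb1, and Trim28 is the corepressor that KRAB zinc finger proteins use to bring Setdb1 to endogenous retroviruses in embryonic stem cells. Cbx5, Cbx1 and Cbx3 are the heterochromatin proteins HP1 alpha, beta and gamma, which bind methylated H3K9, and Morc3 is a nuclear ATPase linked to the silencing of retroviral elements. H3K36me3 is a different mark: Setd2 places it behind elongating RNA polymerase II, so it lies over the bodies of transcribed genes and rises towards their 3′ ends.

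The replicates held 107779 and 98185 peaks over 139 and 127.0 Mb. The number of reads behind them is unknown, so a base outside peaks is one where no peak was called, which does not show that the mark was absent. The strain differs from the C57BL/6J reference. Of 6 embryonic stem cell genes (Pou5f1, Sox2, Nanog, Zfp42, Klf5 and Esrrb) all 6 were marked, meaning that peaks covered at least 10% of the gene body in each replicate, with mean covered shares of 35.4% to 89.5%. None of 5 fibroblast genes (Col1a1, Col1a2, Col3a1, Thy1 and Pdgfrb), listed as genes of feeder cells, had a base in peaks. With the depth unknown, this does not show that feeder cells were absent. None of 5 genes of differentiated cells was marked: Afp, Alb, Myh6 and Ptprc had no base in peaks, and Neurod1 was covered at 18.7% in replicate 1 and 0% in replicate 2.

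All 10 heterochromatin genes were marked, where 37.2% of all coding genes were. In 8 of the 10, peaks covered at least 50% of the gene body in each replicate, as they did in 19.3% of coding genes. The median covered share of the 10 genes was 69.0% in replicate 1 and 65.2% in replicate 2, beside 57.1% and 52.9% over all marked genes. Within the ranking of all coding genes, the members lay between the 69.2th and 97.5th percentile in replicate 1 and between the 70.5th and 96.6th percentile in replicate 2. No test compares the list with other genes, since the members were picked by name with earlier results of these data known.

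**Figure D1:**
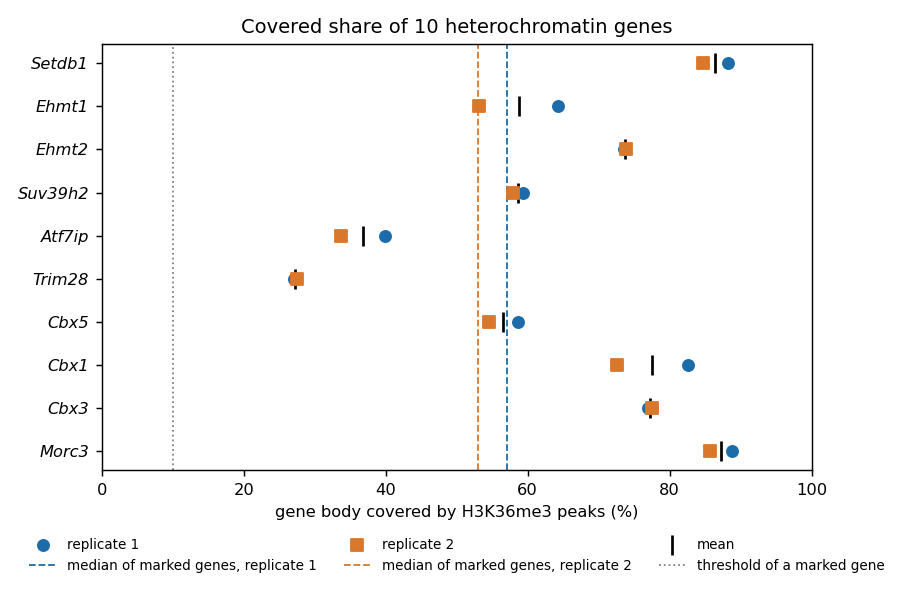
Percent of each gene body covered by H3K36me3 peaks (x axis) in replicates 1 and 2 (points) with their mean (bar), for the 10 genes ordered by role. Dashed lines give the median of all marked genes in each replicate, 57.1% and 52.9%, and the dotted line the 10% threshold; Morc3 and Setdb1 sit highest and Trim28 lowest.

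Several of the highest peaks fell at the same place in both replicates. Among the 3 peaks of highest fold enrichment over each gene, 7 of the 10 genes had a pair of summits, 1 per replicate, within 50 bp of each other. The same count was not made over all marked genes, so it is not known whether 7 of 10 is usual. The sequences around 4 of these pairs are shown as examples of places where high peaks of both replicates met outside annotated UTRs. Each is a 151-base window of the mm10 reference centred between the paired summits, written 5′ to 3′ on the gene's strand, with protein-coding bases in capitals and intron bases in lower case. The Setdb1 window is chr3:95326261-95326411 on the minus strand, and the Cbx3 window chr6:51475854-51476004 on the plus strand. The Atf7ip window is chr6:136594250-136594400 and the Morc3 window chr16:93850769-93850919, both on the plus strand.
Setdb1: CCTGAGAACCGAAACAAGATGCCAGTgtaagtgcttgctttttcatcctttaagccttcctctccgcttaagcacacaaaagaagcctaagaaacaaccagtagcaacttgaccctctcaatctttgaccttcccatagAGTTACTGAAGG
Cbx3: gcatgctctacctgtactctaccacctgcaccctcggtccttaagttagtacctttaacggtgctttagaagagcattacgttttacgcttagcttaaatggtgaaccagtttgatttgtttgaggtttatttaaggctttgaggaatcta
Atf7ip: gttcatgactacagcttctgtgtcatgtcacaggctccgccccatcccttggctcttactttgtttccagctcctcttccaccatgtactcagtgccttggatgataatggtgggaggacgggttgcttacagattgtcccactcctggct
Morc3: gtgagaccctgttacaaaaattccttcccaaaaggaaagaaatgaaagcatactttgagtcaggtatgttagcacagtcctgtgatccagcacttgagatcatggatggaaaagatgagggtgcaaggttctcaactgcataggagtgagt

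The paired summits lay 49 bp apart in Setdb1, 3 bp in Cbx3, 34 bp in Atf7ip and 39 bp in Morc3. The Setdb1 window spans a short intron with coding bases on either side, 38 in all. The other three windows are wholly intronic. The GC content of the 4 windows was 44.4% in Setdb1, 41.1% in Cbx3, 52.3% in Atf7ip and 43.0% in Morc3, and every base of them opened a 32-base word found once in the genome. The highest summits sat in the body and not at the start: over the 10 genes the summit of the highest peak fell in the 3′ part in 7 and the middle part in 3 in replicate 1, and in the 3′ part in 4 and the middle part in 6 in replicate 2, with none in the 5′ part. An exon held it in 4 of 10 genes in replicate 1 and in 6 of 10 in replicate 2. Exons made up between 6.26% (Ehmt1) and 44.9% (Cbx3) of the gene bodies. The place of the highest summit was not counted over all marked genes, so these counts describe the 10 genes only. Places were taken along the annotated spans, and that of Trim28 includes 25.04 kb upstream of its coding transcript. In Suv39h2 the highest summit of each replicate lay in bases shared with Dclre1c, an overlapping gene.

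Among the writers, Setdb1 (ENSMUSG00000015697, chr3:95323525-95357202, minus strand, 33.7 kb), which trimethylates H3K9, was covered most. Peaks took 88.2% of its body in replicate 1 and 84.7% in replicate 2, a mean of 86.4% ± 2.46 (SD, n = 2). The 5′, middle and 3′ parts, each of equal length, averaged 70.8%, 92.0% and 96.6%. Its first 3 exon blocks (exons merged over transcripts) had no base in peaks, and the other 18 of 21 were covered over at least 50% of their length in both replicates. Blocks 1 to 3 are also poor in sequence that occurs once in the genome: 28.4%, 18.4% and 0% of their bases open a 32-base word found once, against 84.4% over the gene. The part of that in their missing coverage was not tested. The highest peak of Setdb1 had a fold of 9.97 in replicate 1, with its summit in exon block 10, and a fold of 13.8 in replicate 2, with its summit in block 12.

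Ehmt1 (ENSMUSG00000036893, chr2:24789928-24919614, minus strand, 129.7 kb) encodes GLP, which acts with G9a as a heterodimer that writes mono- and dimethylated H3K9. It was covered at 64.3% in replicate 1 and 53.2% in replicate 2, or 58.7% ± 7.86, and this difference of 11.1 percentage points was the largest of the 10 genes. Over all marked genes the median difference between the replicates was 3.68 points and the 95th percentile 14.7. The 5′ part averaged 21.4%, the middle part 71.2% and the 3′ part 83.6%. The replicates differed most in the middle part, at 80.9% in replicate 1 and 61.5% in replicate 2. Long genes were covered less as a rule: the 458 marked genes of 100 kb or more had a median covered share of 27.3%.

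Ehmt2 (ENSMUSG00000013787, chr17:34898469-34914052, plus strand, 15.6 kb) encodes G9a. Its covered share was 73.6% in replicate 1 and 73.9% in replicate 2, or 73.8% ± 0.213, the closest pair of values among the 10 genes. Coverage was interrupted near the start and near complete from the middle on. Exon blocks 1 to 7 of 24 held no base in peaks in either replicate, and the parts averaged 27.3% at the 5′ end, 97.5% in the middle and 96.5% at the 3′ end. The coverage stopped with the gene: the joined stretch ended 0.201 kb past the annotated end in replicate 1 and 0.284 kb past it in replicate 2, and Slc44a4, 413 bp downstream on the same strand, had no base in peaks.

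Suv39h2 (ENSMUSG00000026646, chr2:3455815-3475031, minus strand, 19.2 kb) encodes an enzyme that trimethylates H3K9 in pericentromeric heterochromatin. Peaks covered 59.3% of it in replicate 1 and 57.9% in replicate 2, or 58.6% ± 0.960. Its 3′ end overlaps Dclre1c, a DNA repair nuclease gene on the opposite strand, over 43.3% of its body, and ChIP peaks carry no strand. The shared bases were covered at 77.2% and 81.7% in replicates 1 and 2, the unshared bases at 45.6% and 39.8%. Leaving the shared bases out lowered the mean covered share of Suv39h2 to 42.7%, still above the threshold of a marked gene. Coverage of the shared bases cannot be assigned to either gene, and the whole 3′ part of Suv39h2 lies in them.

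Of the Setdb1 cofactors, Atf7ip (ENSMUSG00000030213, chr6:136506167-136610862, plus strand, 104.7 kb) was covered at 39.8% in replicate 1 and 33.7% in replicate 2, or 36.8% ± 4.35. Its coverage was patchy and grew along the gene. The 5′ part averaged 12.0%, the middle part 35.1% and the 3′ part 63.2%. Exon blocks 1 to 6 of 20 held no base in peaks, and the first covered base lay 10.3 kb from the annotated start in replicate 1 and 30.6 kb from it in replicate 2. RefSeq places a start 12.7 kb inside the annotated span. Over the longest coding transcript, meaning the one with the most exonic bases (92.1 kb along the genome), the covered share was 45.0% and 38.3%. Exon block 13, the second longest of the gene at 4888 bp, was covered at 16.1% in replicate 1 and 4.97% in replicate 2.

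Trim28 (ENSMUSG00000005566, chr7:12999114-13031035, plus strand, 31.9 kb), the KRAB corepressor also called KAP1, had the lowest share over its annotated span and, over its coding transcript, a share close to those of Setdb1 and Morc3. The span was covered at 27.1% in replicate 1 and 27.5% in replicate 2, or 27.3% ± 0.250. The longest coding transcript (chr7:13024152-13031035, 6.88 kb), was covered at 85.4% and 87.4%, a mean of 86.4%. The other 25.04 kb of the span are an extension to an upstream exon, covered at 11.1% and 11.0%, and its peaks formed a stretch of 3.32 kb in replicate 1 and 3.28 kb in replicate 2 that overlaps Zbtb45, a zinc finger gene on the opposite strand. Between Zbtb45 and the coding transcript no peak was called in either replicate.

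A single peak held most of the coding transcript of Trim28, but not its first exon (exon block 2, 910 bp), which was covered at 0% in replicate 1 and 4.84% in replicate 2. It ran over chr7:13025155-13034122 in replicate 1, with a fold of 13.4, and over chr7:13025018-13034111 in replicate 2, with a fold of 23.3, the highest of any peak over the 10 genes in that replicate. Its summit lay in exon block 6 of 11 in replicate 1 and in block 8 in replicate 2. The peak crossed the 974 bp behind the gene, all of them covered in both replicates, and ran on into Chmp2a, a gene of membrane sorting on the opposite strand, which was itself covered at 75.5% and 75.1%.

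Of the readers, Cbx5 (ENSMUSG00000009575, chr15:103191544-103239816, minus strand, 48.3 kb; HP1 alpha) was covered at 58.6% in replicate 1 and 54.6% in replicate 2, or 56.6% ± 2.84. It had the steepest gradient of the 10 genes in the replicates' own peak sets, but this rank depended on the peak set. With the unthresholded sets of another processing run the mean 3′ minus 5′ difference was 66.8 points in Cbx5 and 68.2 in Ehmt2. With peaks found in both replicates it was 61.8 in Cbx5 and 62.4 in Ehmt1. Cbx5 stayed steepest with the pooled set and with −log10 q of at least 5, at 60.7 and 84.6 points. The 5′ part averaged 17.7%, the middle part 53.7% and the 3′ part 98.3%. Exon blocks 1 to 3 of 7 had no base in peaks, while blocks 4 to 7, including the 8248 bp last block, were covered over every base in both replicates. The main stretch started 26.5 kb after the gene start in replicate 1 and 26.4 kb after it in replicate 2, just ahead of exon block 4, and ended 3.70 kb past the gene in each.

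Cbx1 (ENSMUSG00000018666, chr11:96789127-96808640, plus strand, 19.5 kb; HP1 beta) was covered at 82.6% in replicate 1 and 72.5% in replicate 2, or 77.6% ± 7.08. Its parts averaged 51.0%, 82.6% and 99.1% from 5′ to 3′. The replicates stood apart at the 5′ end, at 60.3% and 41.6%, and met at the 3′ end, at 98.3% and 100%. Over the longest coding transcript of Cbx1 (14.8 kb along the genome) the covered share was 77.8% and 63.9%. The last 4.67 kb of the annotated span lie past that transcript and were covered at 97.6% and 100%. Coverage did not stop at the end of Cbx1. The 8773 bp that separate it from Nfe2l1, a transcription factor gene that points towards it, were covered at 94.96% in replicate 1 and 91.99% in replicate 2, and Nfe2l1 itself at 70.2% and 75.8%.

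Cbx3 (ENSMUSG00000029836, chr6:51470360-51483704, plus strand, 13.3 kb; HP1 gamma) was covered at 76.9% in replicate 1 and 77.5% in replicate 2, or 77.2% ± 0.397. Unlike the other HP1 genes it had a gap in coverage just before its end. Peaks resumed 13.372 kb from the gene start in replicate 1 and 13.322 kb from it in replicate 2. The annotated end lies at 13.345 kb. In replicate 2 the resumed peak ranked 2 by fold over the gene, at 11.0. Among 10 equal parts of the gene, parts 8 and 9 were fully covered in both replicates and part 10 was covered at 13.6% and 14.8%. That part holds the last exon block of 1225 bp, covered at 5.88% and 7.18%, of which only 6.69% of bases open a 32-base word found once in the genome. Exon block 3, of 143 bp, is also shown. It was covered over every base in both replicates, and only 31 of its bases, in capitals, open such a word. These are its last 31 bases, so each of these words runs on into the next intron. The block lay inside wider peaks, of 2171 bp in replicate 1 and 7333 bp in replicate 2. It is therefore no like comparison for the last block, and the part of repeated sequence was not tested. Block 3 is wholly coding and lies at chr6:51475231-51475373 on the plus strand.
Cbx3 exon block 3: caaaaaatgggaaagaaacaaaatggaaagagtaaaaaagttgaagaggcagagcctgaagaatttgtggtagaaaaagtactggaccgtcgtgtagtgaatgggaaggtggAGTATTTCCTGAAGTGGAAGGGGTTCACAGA

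Morc3 (ENSMUSG00000039456, chr16:93832121-93876073, plus strand, 44.0 kb) had the highest mean share. Peaks covered 88.8% of it in replicate 1 and 85.7% in replicate 2, or 87.2% ± 2.18. Its parts averaged 65.1%, 97.5% and 99.0% from 5′ to 3′, and 15 of 16 exon blocks were covered over at least 50% of their length in both replicates. Joined over gaps of up to 3 kb, its peaks formed 1 stretch of 45.3 kb in replicate 1 and 45.2 kb in replicate 2. The stretch began 1.26 kb and 1.27 kb after the gene start and ended 2.62 kb and 2.52 kb past its end. Chaf1b, a subunit of the CAF-1 histone chaperone, lies 7827 bp downstream and was covered at 82.4% and 83.7%.

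The orders of the covered shares were not fully resolved. The replicate ranges of Morc3 and Setdb1 overlapped. The range of Cbx1 took in those of Cbx3 and Ehmt2, which did not overlap each other, and the range of Ehmt1 took in those of Suv39h2 and Cbx5, which did. The order of Cbx3 and Ehmt2 depended on the peak set. With peaks found in both replicates, and with the pooled set, Ehmt2 was covered at 80.7% and Cbx3 at 78.4%. Atf7ip and Trim28 lay below all other members in both replicates, and Trim28 below Atf7ip in both. This order holds for the annotated spans only. Over the longest coding transcripts Trim28 was covered at 85.4% and 87.4% and Atf7ip at 45.0% and 38.3%. Over the same transcripts the range of Cbx1, 63.9% to 77.8%, lay below that of Cbx3, 77.9% to 78.5%. It still took in that of Ehmt2, 76.0% to 76.4%. Replicate 1 was higher in 7 genes and replicate 2 in 3, and replicate 1 was also higher in 68.8% of all marked genes. The median difference between the replicates was 3.29 points over the 10 genes.

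Along the gene, the 3′ part was covered more than the 5′ part in both replicates in 10 of 10 genes, where this held for 85.0% of marked genes of 3 kb or more. The count includes Trim28, whose parts averaged 26.0%, 0% and 55.9% and whose upstream peaks overlap Zbtb45. It also includes Suv39h2, whose whole 3′ part lies in Dclre1c. The count was not repeated without bases of other genes. The 3′ minus 5′ difference ran from 11.3 points in Cbx3 to 77.0 in Cbx5 in replicate 1, and from 14.6 in Cbx3 to 84.3 in Cbx5 in replicate 2. Its median was 34.1 and 42.9 points over the 10 genes, beside 35.8 and 37.7 over all marked genes, so the size of the gradient was close to that of marked genes at large. The size depended on the peak set: in Morc3 the mean difference was 33.9 points from the replicates' own sets, 15.5 from the combined set of peaks found in both replicates and 18.3 from the pooled set. An exact two-sided permutation test over the 2 replicates cannot go below p = 0.5 for any 1 gene, so the sign in each replicate is given in place of a test. The members' own medians were 36.9%, 85.0% and 90.1% over the 5′, middle and 3′ parts in replicate 1, and 34.2%, 68.8% and 90.1% in replicate 2. The medians of marked genes over the same parts were 32.2%, 67.9% and 78.5%, and 26.9%, 63.1% and 76.0%.

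**Figure D2:**
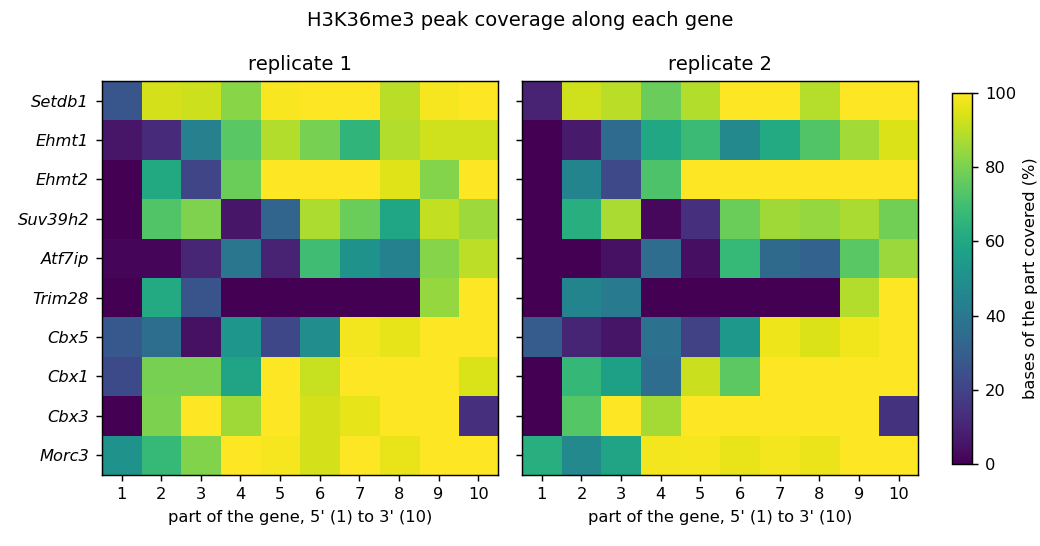
Percent of bases in peaks (colour) in 10 equal parts from the 5′ to the 3′ end (x axis) of each of the 10 genes (rows), with 1 panel per replicate. The first part is dark in most genes and the last parts bright. Trim28 is dark in part 1 and from part 4 to part 8. The extension upstream of its coding transcript reaches from part 1 into part 8 and includes the partly covered parts 2 and 3. Cbx3 turns dark in part 10, at 13.6% and 14.8%.

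None of the starts was covered. Within 500 bp on either side of the annotated start, 0% of bases lay in peaks in all 10 genes in both replicates, and the median over marked genes was also 0%. The same held at the RefSeq start nearest to the annotated one, which matters for Trim28 and Atf7ip, whose RefSeq starts lie 25038 and 12684 bp inside the span. The first exon block was uncovered in all 10 genes. The first covered base lay between 1.26 kb (Morc3) and 10.3 kb (Atf7ip) from the annotated start in replicate 1, and between 1.27 kb (Morc3) and 30.6 kb (Atf7ip) in replicate 2.

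The sequence at the uncovered starts was described by its count of CG, the dinucleotide that DNA methylation uses. All 10 genes were matched to a RefSeq promoter on GRCm38.p6, 250 bases before to 50 bases after the start, and CG reads the same on both strands. They held 15 to 34 CG, with a median of 28.5, beside a median of 14 over the 20150 promoters in the table whose symbols are coding genes. Of these promoters 48.4% held at least 15 CG and 95.6% at least 1. Ehmt1 and Cbx3 held the most, 34 each, and Setdb1 the fewest, 15, close to the median of all. These counts describe the sequence and were not set against the peaks.

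Some members share their start region with a neighbour that points the other way. Cbx3 starts 465 bp from Hnrnpa2b1 and Cbx5 starts 615 bp from Hnrnpa1, both genes of abundant RNA-binding proteins. Hnrnpa2b1 was covered at 78.0% in replicate 1 and 82.3% in replicate 2, and Hnrnpa1 at 87.2% and 87.9%, yet no base between either pair of starts lay in peaks. Ehmt2 starts 203 bp from C2, a complement gene, which was covered at 0% and 2.79%. The 250 bases upstream of Cbx5, between its RefSeq start and Hnrnpa1, are shown as an example of such an uncovered gap between covered genes. They lie at chr15:103239853-103240102 on the minus strand, and capitals mark their 22 CG.
Cbx5 upstream: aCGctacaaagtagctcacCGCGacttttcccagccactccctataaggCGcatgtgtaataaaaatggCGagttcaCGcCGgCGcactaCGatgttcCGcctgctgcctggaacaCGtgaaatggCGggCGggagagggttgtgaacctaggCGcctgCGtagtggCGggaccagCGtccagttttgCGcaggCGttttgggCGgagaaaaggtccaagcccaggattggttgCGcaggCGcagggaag

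**Figure D3:**
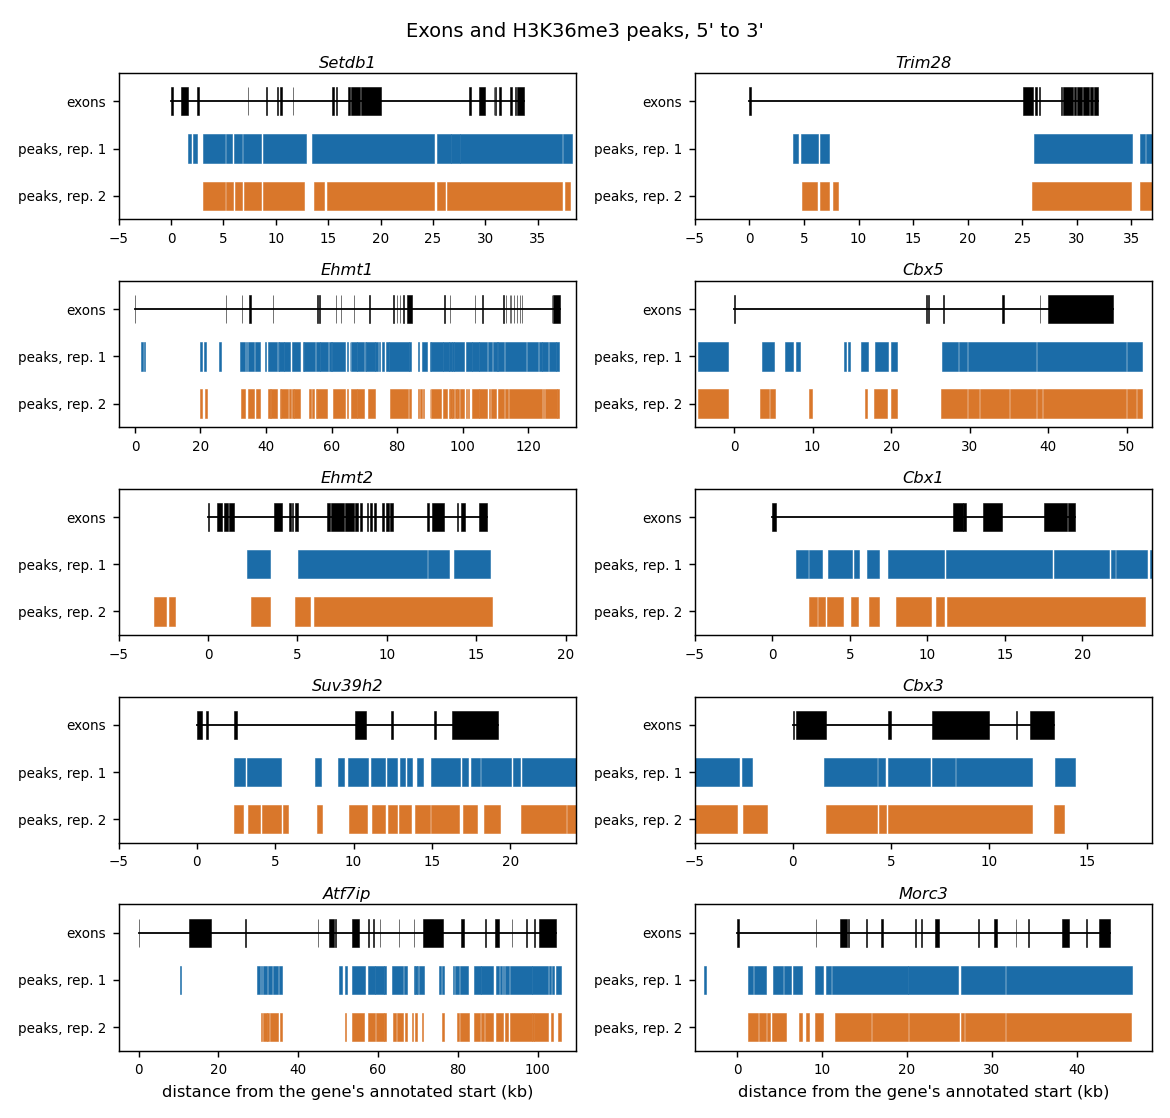
Exon blocks (black) and H3K36me3 peaks of replicates 1 (blue) and 2 (orange) along each of the 10 genes, in kb from the annotated start and 5′ to 3′, with 5 kb on either side. Peaks leave the first exon free in every gene, and in Cbx5 the continuous coverage starts 26.5 and 26.4 kb into the gene.

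Peaks over the 10 genes numbered 159 in replicate 1 and 142 in replicate 2. Joined over gaps of up to 3 kb, they made 19 stretches in each. Setdb1 lay in 1 stretch per replicate, of 36.6 and 35.0 kb, that passed its end into Cers2, a ceramide synthase gene that overlaps its last 75 bp. In Ehmt1 the longest stretch was 97.3 kb in replicate 1, and replicate 2 had stretches of 51.76 and 40.95 kb with a gap between them. The stretch of Suv39h2 ran on through Dclre1c, for 37.4 and 45.7 kb in all, and that of Cbx1 through to Nfe2l1, for 37.9 and 36.8 kb. Cbx3 had a stretch of 12.8 kb in replicate 1 and, in replicate 2, 1 of 26.9 kb that joined it across its start to Hnrnpa2b1 and Nfe2l3. That join comes from the 3 kb rule, since the bases between the starts were uncovered.

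Exons were covered more than introns in both replicates in 7 of 10 genes, where this held for 67.2% of marked genes with 2 or more exon blocks. The median difference was 10.1 points in replicate 1 and 17.4 in replicate 2, beside 11.7 and 14.2 over marked genes. In Cbx5, 96.8% of exonic bases were covered in each replicate, against 49.8% and 44.9% of intronic bases. In Ehmt1, exons were covered at 90.7% and 89.0% and introns at 62.5% and 50.8%, so its exonic coverage was close between the replicates and its intronic coverage was not. In Morc3, exons were covered at 95.8% in each replicate and introns at 87.8% and 84.2%. These differences were smaller within the 3′ part alone. The mean difference there was 3.58 points in Cbx5, where the whole gene gave 49.5, and 11.1 in Ehmt1, where the whole gene gave 33.2. It was 3.43 in Suv39h2 and 1.23 in Morc3, where the whole genes gave 25.2 and 9.81. In Suv39h2 exon blocks 5 to 7 lie in bases shared with Dclre1c, whose coverage cannot be assigned to either gene. The count of genes with exons ahead was not repeated without shared bases.

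The exceptions were Setdb1, Ehmt2 and Cbx3. In Setdb1, exons were covered at 86.2% in each replicate and introns at 88.7% and 84.3%, so the sign differed between replicates, as it did in Ehmt2 with differences of −5.34 and 0.688 points. Cbx3 had exons at 54.8% and 54.5% and introns at 94.97% and 96.22%. Most of the uncovered exonic bases of Cbx3 sit in its last block and in block 2, of 1531 bp near the start, covered at 6.60% in replicate 1 and 0.980% in replicate 2. Within the 3′ part alone, the mean difference of Cbx1 was −1.73 points and that of Atf7ip −18.6. The whole spans gave 20.3 points in Cbx1 and 1.65 in Atf7ip. In Atf7ip the difference also depended on the gene model. Over its longest coding transcript it was 45.3 points, with exons at 86.2% and 79.8% and introns at 41.1% and 34.3%. In Trim28 the mean difference was 35.6 points in the 3′ part alone and 55.7 over the span. Its sign depended on the gene model: exons stood at 75.3% and 76.3% and introns at 19.9% and 20.2% over the annotated span, and exons at 72.0% and 73.3% and introns at 97.4% and 100% over its coding transcript.

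**Figure D4:**
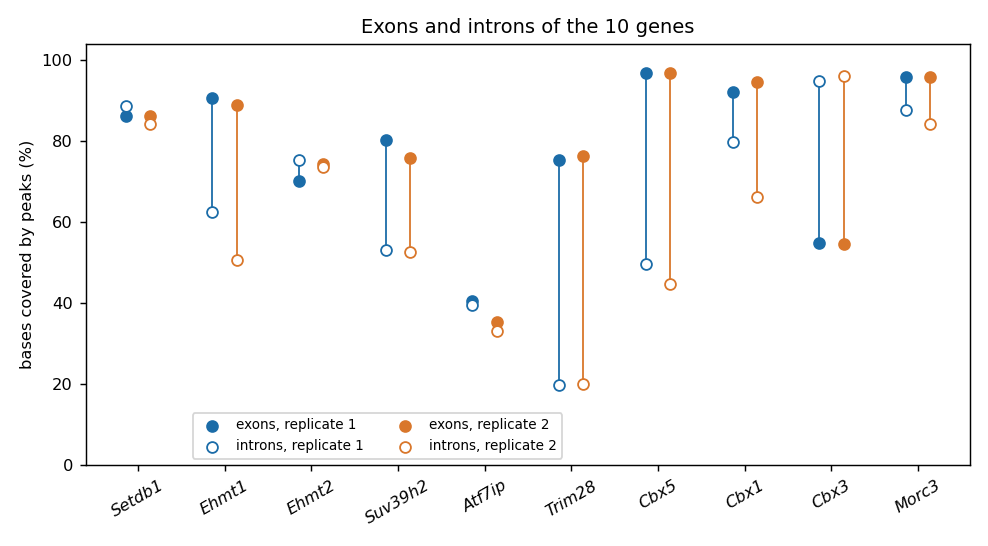
Percent of exonic bases (filled) and intronic bases (open) in peaks for each of the 10 genes over the annotated span, in replicates 1 (blue) and 2 (orange), joined by a line. Trim28, Cbx5 and Ehmt1 show the widest gaps with exons above, and Cbx3 the widest with introns above, at 54.8% and 94.97% in replicate 1.

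Coverage was lower over sequence that occurs more than once in the genome. Between 84.4% (Setdb1) and 98.0% (Suv39h2) of the bases of each gene open a 32-base word found once in the genome. In all 10 genes and both replicates, bases that open such words were covered more than the rest. Words were counted for the 10 genes only, so the share of other genes with this difference is not known. In Setdb1 they were covered at 95.2% and 93.0% and the rest at 50.1% and 40.0%, and in Cbx3 at 83.5% and 83.6% and the rest at 38.3% and 41.6%. The read length is not given in the sources used here, so the word length is a choice, and the part of repeated sequence in the uncovered bases was not tested.

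Of 41 other genes of H3K9 methylation and heterochromatin, 32 were marked, or 78.0%, beside the 37.2% of all coding genes. Among 5 other H3K9 methyltransferases 2 were marked. Suv39h1, the X-linked paralog of Suv39h2, was covered at 77.7% in replicate 1 and 78.8% in replicate 2. Mecom and Prdm16 had no base in peaks, and Setdb2 passed the threshold in 1 replicate only, at 13.97% and 9.29%. All 3 partners of G9a and GLP were marked, between Wiz, a zinc finger protein of the G9a complex, at 26.5% and 27.0%, and Zfp644, another, at 31.6% and 20.6%. Among 10 H3K9 demethylases 8 were marked. Kdm3a stood highest at 91.9% and 90.2%, while Kdm4d had no base in peaks and Phf8 was covered at 3.52% and 3.85%.

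In the HUSH silencing complex and its effector Morc2a, 3 of 4 genes were marked. Mphosph8, its H3K9me3-binding subunit, was covered at 91.4% and 88.9% and Morc2a at 76.8% and 71.1%, while Pphln1 stood at 15.7% and 7.67%. Relatives of the members split: Trim24 at 70.3% and 65.4%, Trim33 at 25.3% and 20.5%, Morc1 at 48.0% and 41.3% and Atf7ip2 at 27.0% and 21.4% were marked, and Morc2b, Morc4 and Trim66 had no base in peaks. Both H4K20 methyltransferases were marked, Kmt5c at 76.5% and 77.8% and Kmt5b at 57.4% and 48.1%. So were all 8 chaperones and remodellers, with Chaf1a highest at 94.0% and 92.1% and Atrx lowest at 27.7% and 26.1%. Zfp57 and Zfp809, KRAB proteins that recruit Trim28, were covered at 75.3% and 76.8%, and at 59.5% and 42.7%. The 9 unmarked genes fell in 4 of the 8 lists: 3 methyltransferases, 2 demethylases, 1 HUSH gene and 3 relatives of members.

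**Figure D5:**
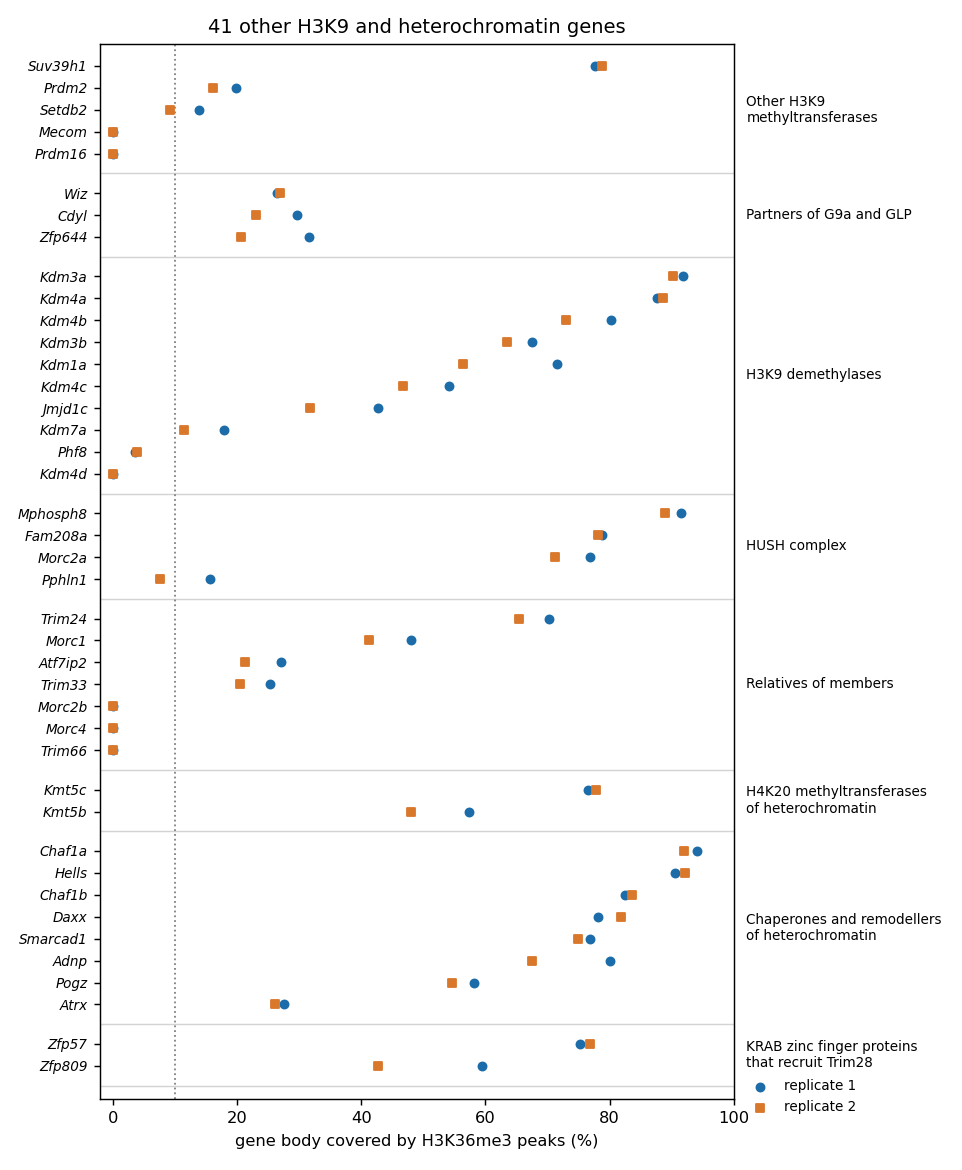
Percent of the gene body covered by H3K36me3 peaks (x axis) in replicates 1 and 2 for 41 other genes of H3K9 methylation and heterochromatin, grouped by list, with the 10% threshold dotted. All 8 chaperones and remodellers lie above the threshold, and 9 of the 41 genes do not pass it in both replicates.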

How the data were processed

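H3K36me3 ChIP-seq peak sets of 2 replicates of 1 cell line were used. The authors deposited, for each replicate, narrow peaks on mm10 supported by pseudoreplicates; per the labels the assembly is mm10, and neither labels nor files state the aligner, caller, read length or read numbers (not given in the sources used here). Each deposited peak carries a fold, which is a ratio over background, and −log10 p and q-values, used only to rank or filter peaks within a set. Depth is unknown, so no counting interval is given. Covered bases were computed with Python 3.11.15, numpy 2.4.6 and pandas 2.3.3 on GENCODE M21 coding genes of chromosomes 1 to 19, X and Y; figures used matplotlib 3.10.9. Where a symbol had several records the longest was kept. A gene was marked at 10% of its body in peaks in each replicate. Positions used 3 equal parts, and stretches joined peaks within 3 kb. Uniqueness counted 32-base words of the reference on both strands with numba 0.67.0. The code was checked on simulated peaks. All 10 members are named; of the other genes, the highest and lowest of each list, every unmarked gene and relatives of members are named, with neighbours that a stretch reaches. Slc44a4, C2, Hnrnpa1 and Chaf1b were named after their values were seen. The members and lists were chosen with earlier results of these data known. Alternatives were other peak sets, thresholds, gene models and gaps, each replicate alone, and bases outside other genes. 1 sequence window is not reported here. Control libraries and the archived mm9 set were not analysed here.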

Additional observations from a re-analysis of the deposited data

How the results depend on the processing

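All 10 genes stayed marked under the unthresholded peak sets of the other processing run, −log10 q of at least 5, each replicate alone, both combined sets, thresholds of 5% and 25%, and without bases of other genes; 8 were marked at 50%. The 3′ part led in 10 of 10 genes under the other peak sets, either replicate alone and the coding transcript, but its size moved by more than the replicate SD in 7 of 10 genes under each combined set. The covered share also moved by more than the replicate SD, in 8 of 10 genes with peaks found in both replicates. With the pooled set it moved in 9 of 10, and no gene had a lower share than its replicate mean. The pooled set gave 69.8% in Ehmt1, 65.6% in Cbx5, 66.4% in Suv39h2 and 80.7% in Ehmt2. Among the 41 other genes 19 were marked at 50%, where 32 were at 10%. Peaks joined within 1 kb made 35 stretches on average, where 3 kb made 19. Genes with exons ahead in each replicate numbered 5 in the 3′ part alone, 6 over the coding transcript, 9 in replicate 2 alone and 7 under the other settings. Exons minus introns changed sign in Setdb1 with the unthresholded sets (0.334 points), in the 3′ part alone (4.24) and over the coding transcript (0.895), and ran from −2.54 to 1.83 between the replicates. In Ehmt2 it was 1.39 in the 3′ part and ran from −5.34 to 0.688 between the replicates. It was −1.73 in Cbx1 and −18.6 in Atf7ip in the 3′ part, and −26.1 in Trim28 over the coding transcript. For Atf7ip it was 1.65 over the annotated span and 45.3 over the coding transcript. Apart from these constructions the cause was not tested. Exons of the coding transcript, and covered shares outside other genes, were added after seeing the data. No test between conditions was possible because the replicates form 1 group. The 3′ and 5′ parts were paired within each replicate, but the exact two-sided permutation test over 2 replicates cannot go below p = 0.5. Unknown depth limits every statement on uncovered bases.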
